A study of Mus musculus with 4 samples.

Results

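Type 18_Novel is 1 of the 45 retinal ganglion cell (RGC) types that the authors named in a spatial map of the mouse retina. It is given here by its deposited name, and its members were the cells that carried that name in the deposited type call, 3232 of 131379 RGCs (2.46%). All cells came from 5 retinas of unmanipulated wild-type C57BL/6 mice, cut into 41 sections on 8 slides, and there was no treated or mutant group. Separate animals are not named for them, and p-values here therefore measure only how far these 5 retinas spread. Retinas were cryosectioned en face, parallel to their surface, at 20 µm, and transcripts of 300 genes were decoded as puncta with Xenium, an imaging assay that counts single RNA molecules in place. The 5 retinas held 795, 998, 400, 649 and 390 cells of 18_Novel, which made up 2.27%, 2.43%, 3.05%, 2.34% and 2.71% of their RGCs (mean 2.56% ± 0.32, SD, n = 5). By number of cells the type ranked 15th among the types. Its cells held a median of 289.5 puncta each against 304 over all RGCs, and no cell of the table held under 100. The mean over retinas of the difference in median puncta from other RGCs was -13.8 ± 9.83, and 1.5 without the cells that held Cdh5 or lacked Slc17a6.

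RGCs are the only neurons that carry visual signals from the eye to the brain, and they fall into many types that differ in dendrites, light responses and targets. Cells of 1 type usually keep a distance from each other while they ignore other types, so that each type tiles the retina with a mosaic of its own. A type is therefore known both by its genes and by its spacing. The names of the 45 types take in well-studied groups, among them the alpha cells, the melanopsin cells (M1, M2, M5), the F types, the W3 types and the ON-OFF direction-selective types (ooDS) beside types known only by a number.

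The label of a ganglion cell was first set against its defining markers. Slc17a6, the vesicular glutamate transporter of RGCs, was at 11.0, 10.0, 7.77, 8.93 and 8.69 puncta per cell in retinas 1 to 5, and the mean of the other 44 types was 11.5 ± 0.731. Rbpms, an RNA-binding protein that marks all RGCs, was at 6.28 ± 0.744 puncta per cell against 6.44 ± 0.475. At least 1 Slc17a6 punctum was found in 91.5% ± 3.99 of 18_Novel cells and in 97.3% ± 0.977 of other RGCs, and at least 1 Rbpms punctum in 91.4% ± 2.37 and 94.6% ± 1.01. The 6 RGC markers of the panel summed to 21.5 puncta per cell (18.4 to 25.6 over retinas), below the 27.3 (25.8 to 29.8) of the other types. Pou4f3, a POU-domain factor of a subset of RGCs, was close to absent, at 0.0812 ± 0.0103 puncta per cell against 0.432. The 18_Novel cells as a set thus carried RGC markers, and a part of them that did not is described below.

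Levels of 18_Novel were compared with the mean of the other 44 types as puncta per 1000 puncta, on a log2 scale. Such values describe the type and are not tested, since the same panel may have been used to define it. Of 298 genes with a ratio, 16 (5.37%) were higher by over 1 on this scale in every retina and 26 (8.72%) lower. The genes named as highest are described by what they encode, and the counts for whole lists follow.

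Lmo2 stood first. It encodes a LIM-domain adaptor of transcription complexes, best known from blood and endothelium. Retinas 1 to 5 held 2.10, 1.60, 2.10, 1.95 and 1.59 Lmo2 puncta per cell, where the other types averaged 0.329, and the log2 ratio was 2.44 ± 0.21 (SD, n = 5). Every retina stood far above the mean of the other types, and 44_Novel was the type with the highest level. Against all other RGCs pooled, where small types weigh little, the log2 ratio of Lmo2 was 3.50. Irx3, an Iroquois homeobox factor, was at 1.555, 1.45, 1.09, 1.47 and 1.08 puncta per cell against 0.283, a log2 ratio of 2.19 ± 0.11. The factors Onecut1 and Onecut2, which horizontal cells and subsets of RGCs express, were at 2.17 ± 0.18 and 0.932 ± 0.0583 puncta per cell, with log2 ratios of 1.76 ± 0.03 and 1.26 ± 0.05. No other type had as high a share of Onecut1 puncta, at 6.87 per 1000, and 27_Novel came next at 6.08. The 6 horizontal cell markers of the panel summed to 5.00 puncta per cell in 18_Novel and 4.98 in the other types, and 2 of them, Calb1 and Ndnf, were among the genes lowest in the type.

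Of the named genes, Spon1, Cdh8, Lrrtm1 and Cdh5 encode surface or matrix proteins. Spon1, which encodes the matrix protein F-spondin, was the most abundant gene of the signature, with 6.72, 5.72, 5.36, 6.09 and 5.34 puncta per cell in the 5 retinas against 1.79 in the other types and a log2 ratio of 1.77 ± 0.12. At least 1 Spon1 punctum was seen in 87.5% ± 0.753 of the cells and in 57.3% ± 2.75 of other RGCs. After each cell was thinned to 100 puncta the shares were 71.4% ± 1.42 and 33.6% ± 2.16. Cdh8, a classical type II cadherin, was at 1.89 ± 0.181 puncta per cell and a log2 ratio of 1.78 ± 0.10, and Lrrtm1, a leucine-rich synaptic adhesion protein, at 0.572 ± 0.0837 and 1.53 ± 0.21. Cdh5 encodes the cadherin of endothelial junctions, and its ratio of 1.31 ± 0.23 rested on a minority of cells taken up below.

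Other named genes encode peptides, receptors, a lipase and a transporter. Cck, the neuropeptide cholecystokinin, was at 0.601, 0.616, 0.417, 0.481 and 0.474 puncta per cell against 0.107 (log2 ratio 2.31 ± 0.16), below only 14_ooDS_Cck. Vgf, a precursor of secreted peptides, was at 3.27 ± 0.4 puncta per cell (1.49 ± 0.10) and Lpl, the lipase of lipoproteins, at 1.77 ± 0.286 (1.69 ± 0.07). Cnr1, the CB1 cannabinoid receptor, had a log2 ratio of 1.59 ± 0.08 and Grm5, a metabotropic glutamate receptor, 1.28 ± 0.13. The GABA receptor subunit gene Gabrg1 stood at 1.26 ± 0.06. Slc29a4, a membrane transporter of monoamines and nucleosides, was at 1.02 ± 0.0901 puncta per cell and 3.21 per 1000 puncta, the highest of all types, ahead of 41_AlphaONT at 2.65, with a log2 ratio of 1.70 ± 0.11.

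**Figure D1:**
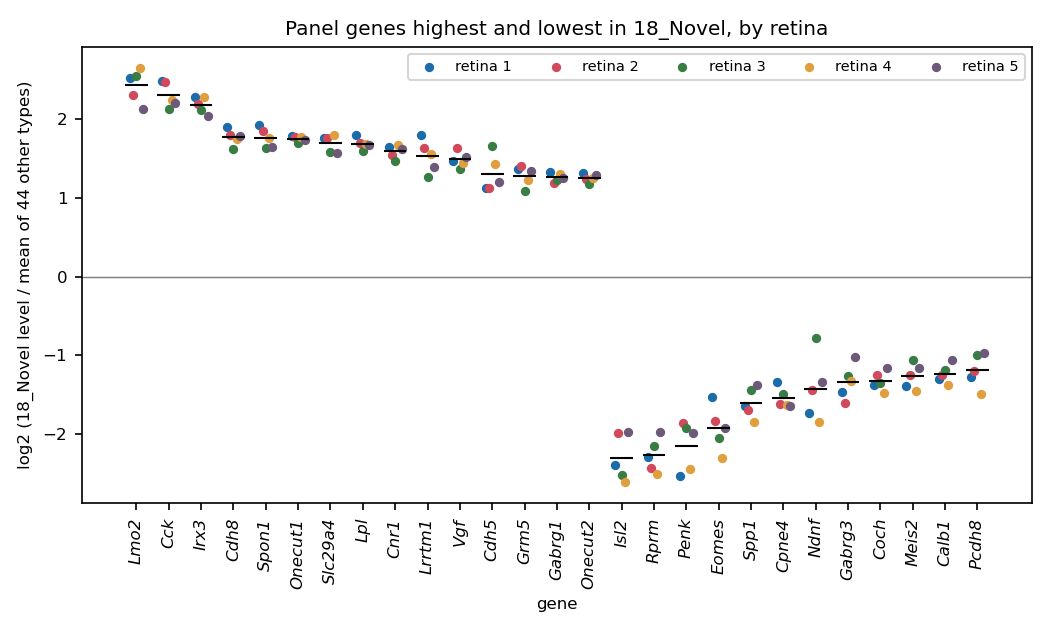
The log2 ratio of the 18_Novel level (puncta per 1000 puncta) to the mean of the 44 other types is plotted for the 15 genes named as highest and the 12 named as lowest, with 1 point per retina and a bar at the mean. The points of each gene lie on 1 side of 0, from Lmo2 at a mean of 2.44 to Isl2 at -2.30, and the spread between retinas is widest for Ndnf (SD 0.42).

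The genes lowest in 18_Novel included several that mark other subclasses of RGCs. Isl2, a LIM-homeodomain factor, was at 0.195, 0.183, 0.115, 0.129 and 0.179 puncta per cell against 0.814 in the other types (log2 ratio -2.30 ± 0.30). Rprm, which encodes the cell cycle protein reprimo, stood at -2.27 ± 0.22 and Penk, the enkephalin precursor, at -2.15 ± 0.31. Eomes, the T-box factor of melanopsin cells, had a log2 ratio of -1.93 ± 0.28, and Spp1, the osteopontin gene of alpha cells, -1.61 ± 0.19. Against all other RGCs pooled the ratio of Eomes was -1.37, the same direction with a smaller size. The mean of types counts each type alike, so a few types with high levels can raise it. At least 1 Spp1 punctum was found in 24.9% ± 2.66 of 18_Novel cells and 27.3% ± 3.17 of other RGCs. The shares were further apart for Isl2, at 12.4% ± 2.46 and 41.3% ± 2.43.

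Cpne4, a calcium-dependent membrane-binding copine, stood at -1.55 ± 0.13, and the secreted factor gene Ndnf at -1.43 ± 0.42. Gabrg3 (-1.34 ± 0.22) encodes a further GABA receptor subunit, so 1 subunit of that family was among the highest genes and another among the lowest. Coch (-1.33 ± 0.12) encodes the matrix protein cochlin, Meis2 (-1.26 ± 0.16) a homeobox factor, Calb1 (-1.24 ± 0.12) the calcium buffer calbindin, and Pcdh8 (-1.19 ± 0.21) a protocadherin. These low genes were not absent, and Meis2 was still at 1.54 ± 0.107 puncta per cell. At least 1 Coch punctum was found in 34.1% ± 3.12 of 18_Novel cells and 32.6% ± 2.15 of other RGCs. For Meis2 the shares were 62.1% and 68.8%, and for Ndnf 26% and 32.1%. They were further apart for Calb1 (42.8% and 53.4%), Gabrg3 (27.3% and 43.3%), Cpne4 (28.8% and 59.2%) and Pcdh8 (39.2% and 66.9%).

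The lists for the named subclasses held no gene that was higher by over 1 in every retina. Over all 298 genes with a ratio, 5.37% were higher in this way and 8.72% lower. The lists are short and hold markers of other types. Whether types outside those subclasses have as many low members was not tested. Of the 4 melanopsin-cell genes 3 were lower by over 1 in every retina, and Opn4, the melanopsin gene itself, was at 0.0378 ± 0.0184 puncta per cell against 0.407. The 2 direction-selective genes of the panel, Tfap2d and Gabrg3, were both lower, as were 2 of 3 N-RGC genes (Neurod2 and Penk), 1 of 5 alpha genes (Spp1), 1 of 3 F genes (Foxp2) and 1 of 3 W3 genes (Isl2). Jam2, the one T-RGC gene, was lower on average (-1.09) but not by over 1 in every retina. Igf1, the remaining gene of the melanopsin list, was not lower in this way and varied among the members.

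By molecular role, the ion channels of 18_Novel were close to those of the average RGC. Of the 31 potassium channel genes and partners none was higher or lower by over 1 in every retina, with a median log2 ratio of -0.05 beside 0.01 over all genes. The 16 calcium channel genes had none either (median -0.12), and of the 9 sodium channel genes Scn9a alone was lower (median -0.39). Of 23 transcription factor genes, Irx3 was higher and 8 were lower, with a median of -0.72. Over all 298 genes with a ratio, 5.37% were higher and 8.72% lower. Several of these factors are also on the subclass lists. The 15 genes for GABA and glycine receptors had 1 higher and 1 lower and a median of 0.54, and the 14 adhesion and matrix genes had 3 higher and 1 lower.

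The types most like 18_Novel over the mean profile of the panel were 27_Novel (Pearson r = 0.959 over 300 genes), 37_Novel (0.947) and 14_ooDS_Cck (0.931). The correlation is a description across genes that share the same sections and depth, and 27_Novel came first in 5 of 5 retinas. Against 27_Novel, 12 of 293 genes (4.10%) were higher by over 1 in every retina and 2 (0.683%) lower. Lpl separated the pair with 1.77 ± 0.286 puncta per cell in 18_Novel and 0.326 ± 0.0145 in 27_Novel (log2 ratio 2.55 ± 0.14), and Spon1 with 5.85 ± 0.576 and 1.19 ± 0.0974 (2.42 ± 0.15). Lmo2 and Cdh5 were the other genes furthest above. The 2 genes lower by over 1 in every retina were the calcium buffer gene Pvalb, at 0.179 ± 0.0228 in 18_Novel and 0.848 ± 0.107 in 27_Novel, and the sodium channel subunit gene Scn4b (log2 ratio -1.75 ± 0.28). The potassium channel gene Kcnn1 (-1.28 ± 0.32) and the neurofilament gene Nefh (-1.09 ± 0.10) came next, each short of that limit in 1 retina.

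Against 37_Novel, 15 of 284 genes (5.28%) were higher and 7 (2.46%) lower. The genes furthest above were Cdh5, Scn3b, Igfbp7 and Pcdh11x, the last with 3.22 ± 0.19 puncta per cell against 0.868 ± 0.0694. Igfbp7 was at 0.374 ± 0.0583 against 0.0869 ± 0.0208, but at 0.103 ± 0.00614 in the 18_Novel cells with Slc17a6 and without Cdh5, so that it and Cdh5 stood above 37_Novel through a minority of cells. Those furthest below were Tacr3, Scn4b, Spp1 and Cnr1. Tacr3, the neurokinin B receptor gene, was at 0.0832 ± 0.0121 against 0.585 ± 0.134. Cnr1, high in 18_Novel against the average type, was at 1.67 ± 0.182 where 37_Novel had 4.78 ± 0.544. Against 14_ooDS_Cck, the type that shares high Cck, 14 of 295 genes (4.75%) were higher and 10 (3.39%) lower. Lmo2, Cdh8, Cdh5 and Spon1 were furthest above and Tfap2d, Pou4f3, Gabrg3 and Cbln2 furthest below. Tfap2d, a transcription factor gene, was at 0.0642 ± 0.0145 puncta per cell in 18_Novel and 1.66 ± 0.272 in 14_ooDS_Cck.

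The members were not alike in these genes. Cdh5 was found in 10.9% ± 2.91 of the cells of a retina, yet 146 cells (4.52% of the type, 3.65% to 6.25% by retina) held 3 or more Cdh5 puncta. These limits, and the sets of cells below, were chosen after the values were seen, and no set was tested for its genes. The cells with 3 or more Cdh5 puncta had 9.30 ± 2.69 Lmo2 puncta each, where cells without Cdh5 and with Slc17a6 had 1.5 ± 0.188. Igfbp7, a growth factor binding protein secreted by vessels, was at 4.94 ± 1.14 against 0.103 ± 0.00614, and Foxp1, Jam2, Cd9 and Hes1 were likewise higher. The RGC genes went the other way, with Slc17a6 at 1.23 ± 0.683 against 10.2 ± 1.05, Rbpms at 2.31 ± 0.372 against 6.77 ± 0.665, Onecut1 at 0.211 ± 0.0964 against 2.37 ± 0.183 and Vgf at 0.121 ± 0.101 against 3.59 ± 0.391. Their median puncta count was 172, against 306. Cdh5 is the only endothelial marker of the list that the panel holds, and its part in the position and spacing results is given there as values without these cells.

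A further 143 cells (4.42%) held neither Cdh5 nor Slc17a6. In them the 14 amacrine markers summed to 27 ± 4.97 puncta per cell against 13.9 ± 0.782 in cells with Slc17a6 and without Cdh5, and Gad1, which makes the transmitter GABA, was at 3.85 ± 1.31 against 0.657 ± 0.0805. Lmo2 was low in them, at 0.363 ± 0.28. Over all types, 18_Novel had the third highest share of cells with 3 or more Cdh5 puncta, at 4.81% as the mean of retinas, after 44_Novel (32.4%) and 07_Novel (8.53%), with a median of 0.309% in the other types. It also had the third highest share of cells without Slc17a6, at 8.53%, after 44_Novel and 33_M1, with a median of 1.41%.

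The 2754 cells with Slc17a6 and without Cdh5 were 85.2% of the type. Among them the log2 ratio of Lmo2 was 2.88 ± 0.12, of Irx3 2.17 ± 0.17, of Cck 2.31 ± 0.17 and of Spon1 1.82 ± 0.11, when every other type was reduced in the same way. Cells with at least 200 puncta had a Cdh5 ratio of 0.71 in place of 1.31.

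**Figure D2:**
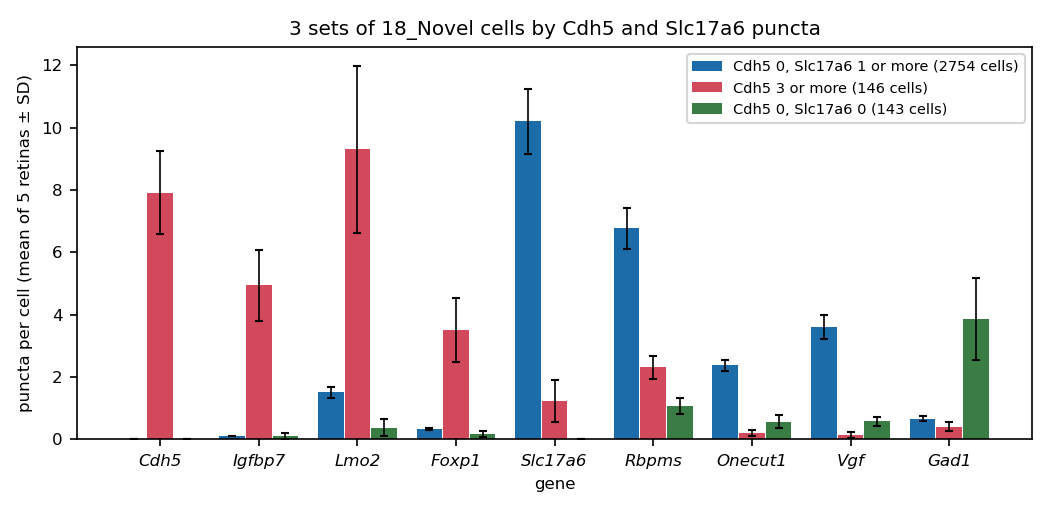
Puncta per cell of 9 genes are shown for 3 sets of 18_Novel cells, as the mean of the 5 retinas with the SD between retinas as error bars. The 146 cells with 3 or more Cdh5 puncta are high in Lmo2, Igfbp7 and Foxp1 and low in Slc17a6, Rbpms, Onecut1 and Vgf, and the 143 cells with neither Cdh5 nor Slc17a6 are high in Gad1.

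The gene with the widest spread among the members was Pcdh11x, a protocadherin of the X chromosome that acts in cell adhesion. In the 2164 cells without Cdh5, with Slc17a6 and with at least 200 puncta, its variance was 5.67 times its mean, the highest of the 97 genes with a mean of 1 punctum or more. Its mean was 3.96 puncta and its median 2, with a 95th percentile of 14 and a highest cell of 32. No Pcdh11x punctum was found in 26.2% of these cells, where a Poisson distribution with the same mean has 1.91%. At the limits used below, 953 cells (44%) had 0 or 1 punctum, 712 (32.9%) had 5 or more, and 499 lay between. The split was a cut of a continuous count and not a type call, and the share with 5 or more was 33.0%, 30.1%, 39.1%, 36.5% and 28.7% in the 5 retinas.

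The Pcdh11x-high cells, those with 5 or more puncta, also differed from the Pcdh11x-low cells, those with 0 or 1, in other genes. Of 297 further genes with a ratio, 4 were higher by over 1 (log2 of puncta per 1000) in every retina and 3 lower. Ebf3, a helix-loop-helix transcription factor, was at 2.83 ± 0.37 puncta per cell in the high and 0.73 ± 0.10 in the low cells (log2 ratio 1.62 ± 0.13). Kcnh1, a voltage-gated potassium channel, was at 2.05 ± 0.27 and 0.58 ± 0.07 (1.47 ± 0.16), and Nell1, a secreted matrix protein, at 2.93 ± 0.31 and 1.00 ± 0.10 (1.21 ± 0.13). Ccdc88b, Grik1, Gabrg1, Igf1, Zfp804a and Cnr1 were also higher in every retina, with log2 ratios from 1.75 for Ccdc88b to 0.93 for Cnr1. Igf1, the insulin-like growth factor, was at 4.16 ± 0.42 puncta per cell in the high and 1.56 ± 0.23 in the low cells.

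Lower in the Pcdh11x-high cells in every retina were Cdh8 with 1.74 ± 0.13 puncta per cell against 2.89 ± 0.19 (log2 ratio -1.07 ± 0.14), the calcium channel gene Cacna1i (-1.23 ± 0.23), the glutamate receptor subunit gene Grin3a (-1.51 ± 0.38), Gabrg3 (-1.37 ± 0.64) and Vgf (-0.96 ± 0.16). Several genes of the type as a whole did not follow Pcdh11x. The log2 ratio between the sets was -0.19 ± 0.15 for Lmo2, -0.08 ± 0.06 for Onecut1, 0.10 ± 0.19 for Onecut2 and -0.04 ± 0.03 for Slc17a6. Both sets were most like 27_Novel over the panel (r = 0.956 for the high and 0.941 for the low cells), but for the low cells 37_Novel was close behind at 0.939 and first in 1 of 5 retinas. The high cells held more puncta in all, with a median of 418 against 321, and were larger, with median volumes of 772, 794, 860, 708 and 803 units against 624, 619, 683, 542 and 729. The volume difference was 148 ± 43.2 units, but a limit on the raw count places large cells with many puncta in the high set, so this value is given without a test. With sets of the highest and lowest share of Pcdh11x among a cell's puncta, whose median puncta counts were 384 and 362, the volumes were 732 ± 71.7 and 683 ± 76 units. That difference was 48.8 ± 38.1, higher in 4 of 5 retinas (exact two-sided sign-flip permutation test, p = 0.125).

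The position of the sets relative to each other was then measured. For each set, the share of a set among the RGCs at 30 to 60 units from its cells was divided by its share at 180 to 300 units in the same sections, so that 1 means no local excess or deficit. Around Pcdh11x-high cells the relative share of other high cells was 0.359, 0.176, 0.413, 0.423 and 0.845 in retinas 1 to 5 (mean 0.443 ± 0.246, 22 pairs). Around Pcdh11x-low cells the relative share of other low cells was 0.308, 0.52, 0.938, 0.0681 and 0.618 (mean 0.490 ± 0.327, 36 pairs). From high to low cells it was 0.963, 0.819, 1.65, 1.27 and 1.22 (mean 1.18 ± 0.32, 142 pairs). The same-set values lay below 1 in every retina and the cross-set values on both sides of it. The band of 30 to 60 units, like the sets, was chosen after the values were seen, so the difference is a description without a test. The mean of both same-set shares was below the cross-set share in 5 of 5 retinas, by -0.716 ± 0.265. The difference lay between -0.782 and -0.622 under 4 other ways of drawing the sets. At 0 to 30 units the values lay closer together, with 0.854 ± 0.289 from high to high, 0.564 ± 0.242 from low to low and 0.895 ± 0.249 across, on 19, 18 and 45 pairs.

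No shift of the Pcdh11x-high cells along the retina was larger than its spread. Their share among the cells considered was 33.7% ± 4.02 in the periphery and 33.1% ± 5.24 in the centre, a difference of 0.577 ± 2.18 percentage points (exact two-sided sign-flip permutation test, p = 0.562). Along X the difference was -0.0879 ± 3.12 (p = 1, same exact test) and along Y 3.04 ± 8.04 points (p = 0.5, same exact test).

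**Figure D3:**
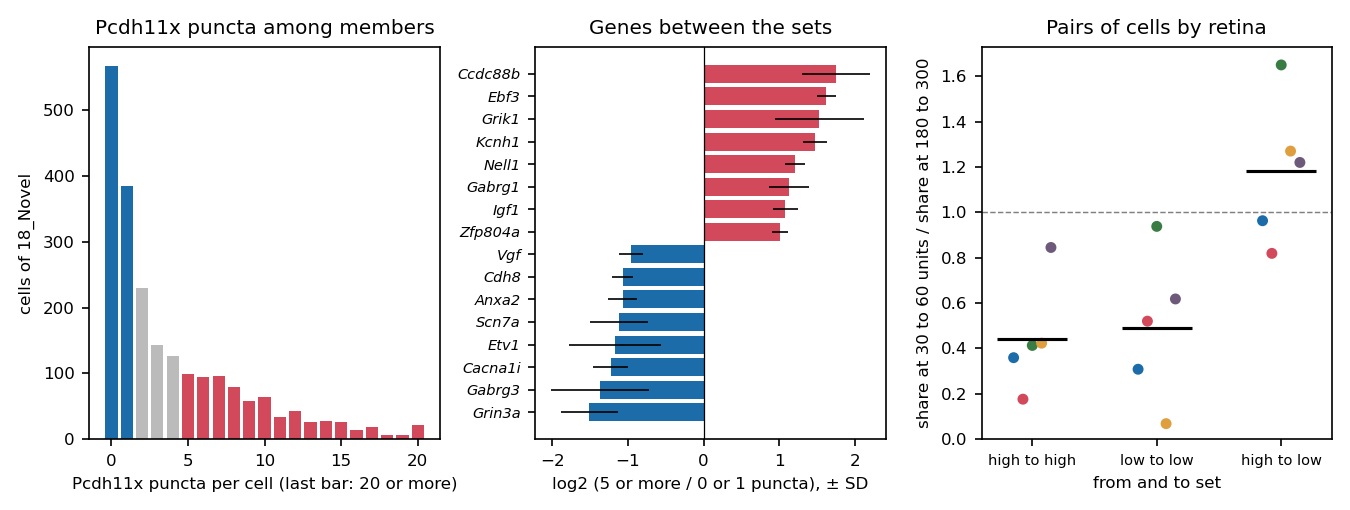
The left panel counts 18_Novel cells by Pcdh11x puncta, with cells at 0 or 1 in blue and at 5 or more in red, the middle panel gives log2 ratios between these sets as mean ± SD of 5 retinas for 8 genes in each direction, and the right panel gives, for each retina (1 point each) with the mean as a bar, the relative share of a set at 30 to 60 units. Same-set means are 0.443 and 0.490 and the cross-set mean is 1.18.

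Close pairs of the same type were less scarce in 18_Novel as a whole than in most types. Within 30 units of an 18_Novel cell, the share of its own type relative to 180 to 300 units was 0.790, 0.958, 0.983, 0.708 and 0.967 in the 5 retinas (mean 0.881 ± 0.125, 294 pairs), where the median of the other types was 0.395 ± 0.0516. The value lay above that median in 5 of 5 retinas, by 0.486 ± 0.0761, in a band chosen after the values were seen, and 37 of the other 44 types had a lower mean. The 3 most similar types were at 0.828 (27_Novel), 0.310 (37_Novel) and 0.453 (14_ooDS_Cck). At 30 to 60 units 18_Novel was at 0.831 ± 0.136 against a median of 0.724, above it in 5 of 5 retinas, and at 60 to 180 units at 1.01 ± 0.081 against 1.02. Without cells that held Cdh5 or lacked Slc17a6 the value within 30 units was 0.881 ± 0.0781.

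At 0 to 15 units the relative share was 0.515, 0.546, 0.389, 0.284 and 1.10 in the 5 retinas (mean 0.568 ± 0.317, 44 pairs), below 1 in 4 of them. This band too was chosen after the values were seen, so the values are given without a test. Retina 5 showed no deficit. The median of the other types was 0.0817, and 42 types lay lower than 18_Novel. A same-type neighbour within 15 units was found for 2.87% ± 1.72 of cells, the fourth highest share of 43 types, with a median of 0.350%. The mean distance to the nearest cell of the type in the section was 91.5 ± 10.3 units, 1.04 ± 0.06 times the distance that complete spatial randomness gives at the same density, and the median type was at 0.988 (difference 0.0557 ± 0.0709, exact two-sided sign-flip permutation test, p = 0.125). That difference was smaller than its spread between retinas. By this ratio the type ranked 9th of 43 from the highest. The mean of these distances over their SD was 1.19 ± 0.157, against 1.26 for the median type. By that measure 18_Novel ranked 33rd of 43 (difference -0.0644 ± 0.0435, exact two-sided sign-flip permutation test, p = 0.125). The median of the nearest same-type distances that the authors deposited was 67.4 ± 5.84 units.

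**Figure D4:**
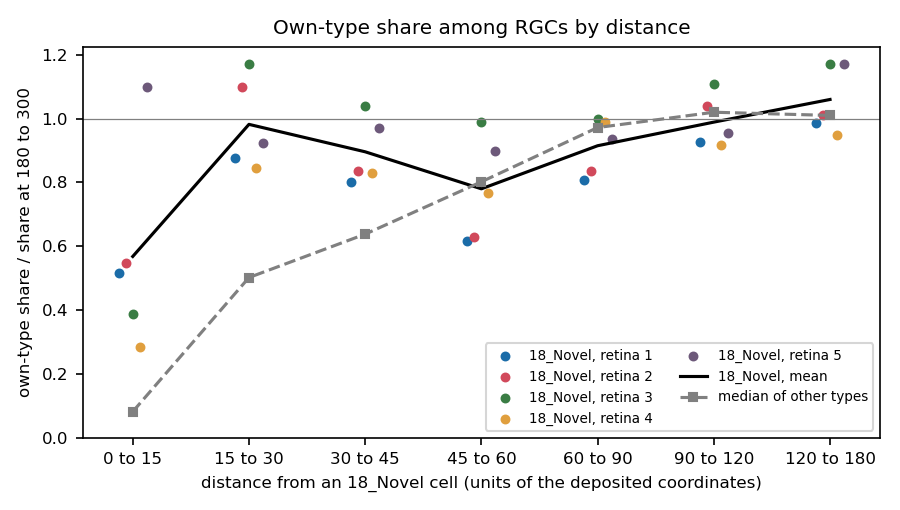
The share of 18_Novel among RGCs around 18_Novel cells, relative to 180 to 300 units, is plotted by distance band for each retina (points) and as the mean (line), with the median of the other types as a dashed line. The mean of 18_Novel is 0.568 at 0 to 15 units and 0.982 at 15 to 30 units, where the other types are at 0.0817 and 0.502, and at 45 to 60 units the values are 0.780 and 0.802.

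Around 18_Novel cells, the types most like it were somewhat frequent. Among the 10 nearest RGCs, 27_Novel made up 1.24% ± 0.122 against 1.02% ± 0.103 in the same sections (log2 ratio 0.29 ± 0.17), and 37_Novel 0.80% ± 0.06 against 0.66% ± 0.05 (0.28 ± 0.11), both above their section share in 5 of 5 retinas. The F type 04_FminiOFF (-0.20 ± 0.16) and 35_Novel (-0.48 ± 0.33) lay below in 5 of 5. In all, 6 of 45 types were above and 6 below in every retina. The highest ratio was that of 41_AlphaONT (0.36 ± 0.33), which was above in 4 of 5 retinas. The section share takes no account of where in a section cells lie. The part of position gradients shared between types was not tested. None passed after adjustment (exact two-sided sign-flip permutation test, p = 0.0625, Benjamini-Hochberg adjusted p = 0.234 over 45 types, for each of these 4). The type's own share among those neighbours had a log2 ratio of -0.17 ± 0.28, below 0 in 3 of 5 retinas.

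18_Novel cells were found across the whole retina. They made up 2.25% ± 0.483 of RGCs at a radius under 0.2 of the deposited circular coordinates, 2.42% ± 0.207 at 0.4 to 0.6 and 3.04% ± 0.628 above 0.8. Split at a radius of 0.5, the periphery held 2.30%, 2.57%, 3.12%, 2.46% and 2.91% in retinas 1 to 5 and the centre 2.14%, 2.17%, 2.98%, 2.10% and 2.55%. The periphery was higher in each of the 5 retinas, while the ranges over retinas overlapped. In the edgeR quasi-likelihood fit over all types the log2 difference was 0.18 ± 0.06 (SE, Benjamini-Hochberg adjusted p = 0.0193), where 42.2% of the 45 types were called in either direction, while the sign-flip permutation test (exact, two-sided) stood at p = 0.0625. The call was lost with the section as a block (0.13, edgeR adjusted p = 0.0821), in cells with at least 200 puncta (0.10, 0.313), without cells that held Cdh5 or lacked Slc17a6 (0.14, 0.105), with DESeq2, and without retina 2 or retina 4.

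Along the X and Y axes, whose anatomical direction the labels do not give, the share was not called in the fit with the retina as block. It was 2.66% ± 0.355 at X above 0 and 2.45% ± 0.338 below (edgeR adjusted p = 0.193), and 28.9% of types were called on this axis. The X difference was 0.11 ± 0.06 (log2, SE), and it was called with the section as a block (0.16, edgeR adjusted p = 0.0472) and without cells that held Cdh5 or lacked Slc17a6 (0.22, edgeR adjusted p = 0.025). Along Y, 2.78% ± 0.264 stood above 0 and 2.42% ± 0.624 below (edgeR adjusted p = 0.26), and no type was called, although 16 of 45 had an unadjusted p under 0.05. The retinas went different ways on Y, with log2 ratios of 0.37, 0.42, -0.04, 0.74 and -0.33. With the section as a block the Y difference of 18_Novel was 0.36 (edgeR adjusted p = 0.00187). The section fits on X and Y count sections of the same retina as separate units. Their p-values therefore do not measure the spread between retinas.

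Within 18_Novel, genes differed between periphery and centre. Of 269 genes tested, 11 (4.09%) were higher in the periphery and 1 (0.372%) lower, where over all type-gene pairs of the axis 1.61% were higher and 0.724% lower (edgeR, Benjamini-Hochberg adjustment over all pairs). Slc17a7, a vesicular glutamate transporter, was at 0.320, 0.504, 0.960, 0.422 and 0.777 puncta per cell in the periphery of retinas 1 to 5 and 0.307, 0.297, 0.431, 0.204 and 0.421 in the centre. The difference was nearly nil in retina 1 and clear in the others, and the log2 estimate was 0.81 ± 0.14 (SE, edgeR adjusted p = 0.00139). Fxyd6, a regulator of the sodium pump, was at 1.13, 1.01, 1.01, 1.01 and 1.49 against 0.883, 0.716, 0.668, 0.689 and 1.09 (0.51 ± 0.09, edgeR adjusted p = 0.00194). Fxyd6 was called higher in the periphery in 28 of 40 types tested, 18_Novel included, so its gradient was not particular to 18_Novel. Slc17a7 was called higher in 4 of 40 types. Of genes described next, Gngt1 was called higher in 13 of 40 types, Gnat1 in 8, Rlbp1 in 7 and Gabrr2 in 1 of 28. The median log2 over types was above 0 for every gene called higher, from 0.13 for Gabrg1 to 0.52 for Fxyd6.

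Of the other 9 genes called higher, 5 are on the marker lists of rods, bipolar cells or Müller glia. Those lists hold 3, 11 and 5 genes of the panel, and most of these were not called. Over all 269 genes tested, 4.09% were called higher. Rpgrip1, a protein of the photoreceptor cilium, was at 0.311 ± 0.147 puncta per cell in the periphery and 0.145 ± 0.0612 in the centre (log2 1.08 ± 0.20, edgeR adjusted p = 0.00251). The rod transducin genes Gngt1 (0.56 ± 0.11) and Gnat1 (0.66 ± 0.15), the bipolar cell channel genes Trpm1 (0.84 ± 0.19) and Cacna2d4 (0.93 ± 0.23), and Rlbp1 (0.41 ± 0.12), the retinal-binding protein of Müller glia, followed. Gabrr2 (0.87 ± 0.22) and Glra1 (0.41 ± 0.11), both inhibitory receptor subunits, completed the 10 largest, and Gabrg1 (0.40 ± 0.10) was also called. The gene called lower in the periphery was Cpne4, at 0.382 ± 0.102 puncta per cell against 0.553 ± 0.106 (-0.50 ± 0.14, edgeR adjusted p = 0.0395), lower in 5 of 5 retinas.

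Some marker lists of other cells were also higher in the periphery. The 3 rod markers were at 6.23 (3.28 to 9.80) per 1000 puncta in the periphery and 4.23 (2.19 to 5.83) in the centre of 18_Novel, higher in 5 of 5 retinas, and at 4.40 and 3.45 in other RGCs. The 11 bipolar markers were at 7.94 (4.38 to 12.3) and 5.66 (4.77 to 8.20), and the 5 Müller glia markers at 6.88 (5.47 to 8.23) and 5.53 (4.59 to 7.01), each higher in 4 of 5 retinas. The 2 cone markers were at 0.520 and 0.347, higher in 5 of 5. The 14 amacrine markers were at 44.9 and 44 (higher in 3 of 5 retinas) and the 6 horizontal cell markers at 15.7 and 15.8. The 2 astrocyte markers were at 1.15 in the periphery and 1.38 in the centre (higher in 2 of 5). The 2 microglia markers were low, at 0.164 and 0.123 (higher in 4 of 5). Cdh5 was at 1.56 and 1.32 and the pericyte gene Pdgfrb at 0.185 and 0.173 (each higher in 3 of 5). The 6 RGC markers were at 66.0 in the periphery and 70.2 in the centre. The part of these markers in the gene calls was not tested. Nor was it tested whether puncta of the called genes off these lists, such as Slc17a7, Rpgrip1 and Gabrr2, came from the ganglion cells themselves. Without cells that held Cdh5 or lacked Slc17a6, 5 genes were called in place of 12, among them Slc17a7, Fxyd6, Rpgrip1 and Cpne4. With the slide as a block 3 were called, and leaving out 1 retina gave 35 (without retina 1), 3 (retina 2), 11 (retina 3), 4 (retina 4) and 5 (retina 5).

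The gradient of no gene differed between 18_Novel and the other RGCs in the test of that difference. By edgeR 0 of 300 genes were called along the radius, X or Y (0% on each axis), with 23, 27 and 18 genes at an unadjusted p under 0.05, and DESeq2 called 0 along the radius, 9 along X and 4 along Y. Cpne4 had a difference of -0.44 ± 0.13 (edgeR adjusted p = 0.263) along the radius. Leaving out retina 1 gave 25 calls along the radius. Within 18_Novel, 0 of 284 genes were called along X and 0 of 282 along Y by edgeR (0%), with 24 and 26 at an unadjusted p under 0.05, and DESeq2 called 0 on both axes. Leaving out retina 3 gave 5 calls along X, and leaving out retina 5 gave 2 along Y.

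**Figure D5:**
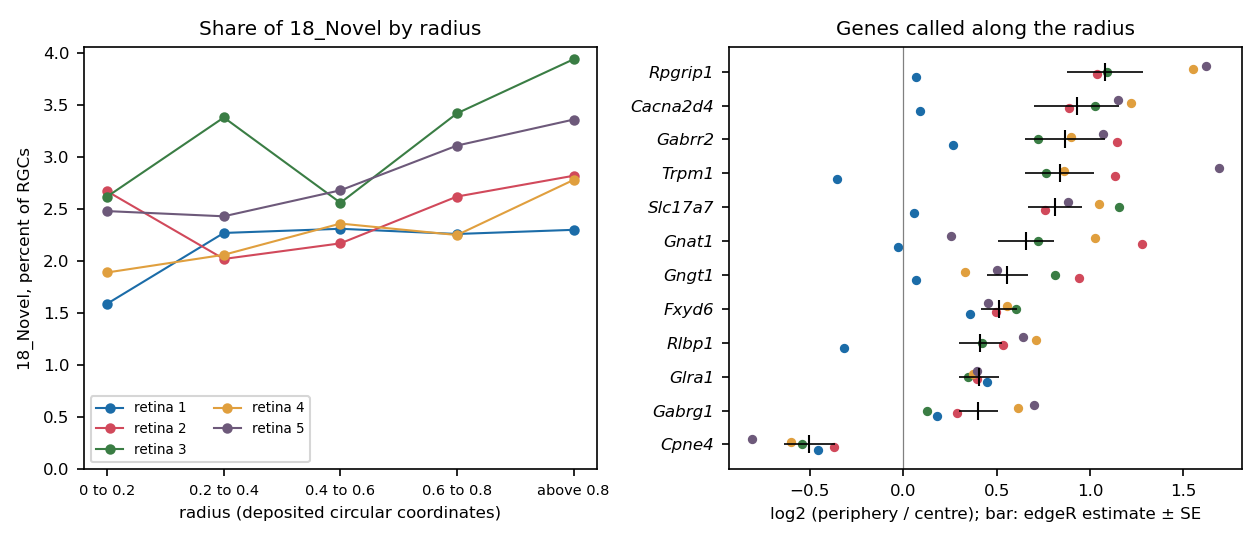
The left panel plots the percent of RGCs that were 18_Novel against radius for each retina, and the right panel the log2 ratio of puncta per cell, periphery over centre, of the 12 called genes for each retina (same colours) with the edgeR estimate ± SE in black. The share is highest above 0.8 in 4 of the 5 retinas, and retina 1 lies lowest for 9 of the 11 genes called higher.

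The cells of 18_Novel were of middling size. Their median volume was 612, 582, 630, 528 and 653 units in retinas 1 to 5, against 595, 597.4, 644, 529 and 621 for other RGCs, so the retinas went both ways (difference 4.03 ± 20.2, exact two-sided sign-flip permutation test, p = 0.625). The type ranked 25th of 45 by volume, between 418 for 01_W3D1.1 and 915 for 43_AlphaONS. Cells were slightly more elongated than other RGCs in 5 of 5 retinas, at 1.23 ± 0.0155 against 1.22 ± 0.0139 (difference 0.00974 ± 0.00742, exact two-sided sign-flip permutation test, p = 0.0625, Benjamini-Hochberg adjusted p = 0.188 over 6 measures). In the periphery the median volume was 589 ± 44.3 against 620 ± 43.9 in the centre, lower in 4 of 5 retinas (difference -31.3 ± 28, exact two-sided sign-flip permutation test, p = 0.125). The same difference in other RGCs was -9.52 ± 53.9, although their volume was higher in the periphery in 4 of 5 retinas. The gap between the 2 differences was -21.8 ± 47.5, within its spread (exact two-sided sign-flip permutation test, p = 0.375).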

How the data were processed

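The authors imaged en face sections of 5 retinas with Xenium, and their deposited table holds, per the file headers, whole-number puncta counts of each gene in each cell, with type, retina, slide, section, position, shape and volume. The DAPI intensity of a cell is the authors' mean as deposited. Segmentation, cell filters and type calls are not given in the sources used here, nor are the units of volume and position. No label ties the retinas to the 4 deposited samples, so the retina was the replicate (n = 5). Slides were shared by retinas 4 and 5 and by retinas 3 and 5.

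Counts were used as deposited. Retinas held 4048481 to 12879454 puncta, and 118431 to 310367 in 18_Novel. Counts were summed per retina and side and fitted with edgeR 4.0.16 (R 4.3.3; quasi-likelihood, retina as block, TMM, filterByExpr, at least 50 cells per side, threshold 0.05) for every type. The pairing comes from both sides lying in the same retina. DESeq2 1.42.0 was an alternative. Single values had an exact sign-flip test over retinas (Python 3.11.15, scipy 1.17.1). Random spacing was 0.5 over the square root of density, in sections with at least 20 cells of the type. Scripts were tested on simulated data.

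Named genes were the 15 highest and 12 lowest by mean log2 ratio, in the same direction in all retinas, with at least 100 puncta in the type (highest) or 0.5 puncta per cell in other types (lowest), the 4 highest and lowest against each similar type, and up to 10 called genes per direction of an axis. Members and lists were chosen with earlier results of these data known. The sets by Cdh5, Slc17a6 and Pcdh11x, the genes named between them and the distance bands were chosen after the values were seen.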

Additional observations from a re-analysis of the deposited data

Results flagged for a closer look

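Among 49 values examined over the 5 retinas, 1 had a retina far from the other 4, which chance alone gives in about 1 of 20 such groups. The gene was Rlbp1, the retinal-binding protein of Müller glia. Its log2 ratio of puncta per cell, periphery over centre within 18_Novel, was -0.32 in retina 1, where the other 4 retinas lay between 0.42 and 0.71.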

How the results depend on the processing

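All 27 named gene levels kept their direction under each alternative tried, and 25 of 242 alternative values moved by more than the spread between retinas. Of these, 16 came from the comparison with all other RGCs pooled, under which 16 named genes moved and 11 did not. Counts of genes past the limit lay between 16 and 19 (higher) and 26 and 31 (lower) when 1 retina was left out. Of the 143 alternative values of the 11 named radial genes, none turned and 61 lost the call. The radial share was 0.126 with the section as a block, 0.0982 in cells with at least 200 puncta, 0.171 with DESeq2, 0.148 with no replicate block, 0.136 without cells with Cdh5 or lacking Slc17a6, and 0.149 to 0.199 leaving out 1 retina. These 5 settings ended its call, as did leaving out retina 2 or 4. Genes called along the radius numbered 6 with DESeq2, 0 with no replicate block, 3 with the slide as a block, 5 without cells with Cdh5 or lacking Slc17a6, and 3 to 35 leaving out 1 retina. Gradient differences numbered 0 to 25 along the radius and 0 to 1 along X leaving out 1 retina, and 9 along X and 4 along Y with DESeq2. Genes along X and Y numbered 0 to 5 and 0 to 2 leaving out 1 retina. The X share was called with the section as a block (0.161) and without cells with Cdh5 or lacking Slc17a6 (0.221), and the Y share with the section as a block (0.359). The section fits count sections of the same retina as separate units. Leaving out 1 retina gave 0.0839 to 0.140 on X and 0.124 to 0.388 on Y. The volume difference turned to -6.48 with means, and lay between -2.82 and 8.79 leaving out 1 retina. The puncta difference of -13.8 became -3.36 with means and 1.5 without cells with Cdh5 or lacking Slc17a6, and lay between -18.0 and -11.6 leaving out 1 retina. Left out in the same way, the radial volume difference was -43.0 to -25.1, the spacing ratio 1.02 to 1.06, the own-type share within 30 units 0.856 to 0.924, and the difference between same-set and cross-set Pcdh11x shares -0.777 to -0.640. The causes were not tested. With 5 retinas no single-value test can fall below p = 0.0625 (exact two-sided sign-flip permutation test), and most genes have 0 or 1 punctum per cell, so single cells could not be sorted with certainty.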
